A study of Mus musculus with 6 samples.

Results

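Glycolysis genes and genes of the cellular response to low oxygen were examined as 1 set of 42 mouse genes, chosen by name as glucose and lactate transporters, glycolytic enzymes and their regulators, and targets and regulators of the hypoxia-inducible factors (HIF). The count table held 40166 genes, and the 42 symbols matched 43 of its rows because *Aldoa* is also the symbol of a neighbouring gene model. All 43 rows passed the filter on low counts, a median of at least 5 counts in at least 1 group. Bulk RNA sequencing had been carried out on 6 tumors grown from YUMM3.3, a BRAF-mutant mouse melanoma cell line, after injection under the skin of the lower back of C57BL/6 mice that were 8 to 10 weeks old when tumors were established. The 3 vehicle tumors (replicates 7, 8 and 9) came from mice given water. The 3 RGS tumors (replicates 10, 11 and 12) came from mice given rigosertib (RGS) at 300 mg/kg. The study describes RGS as a RAS mimetic that may block signaling downstream of RAS, and states that several mechanisms have been reported. Water and RGS were given by oral gavage of 100 µL on 5 days a week. All 6 tumors were collected at 17 days of treatment. The model rests on 1 cell line, a whole tumor holds stromal and immune cells as well as tumor cells, and the sex of these mice is not given in the labels.

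Glycolysis splits glucose into pyruvate in a fixed order of enzymes, and lactate dehydrogenase then converts pyruvate to lactate, which monocarboxylate transporters carry out of the cell. HIF is a transcription factor made of an oxygen-regulated alpha subunit and a constant beta subunit. Prolyl hydroxylases mark the alpha subunit for destruction when oxygen is present, and in low oxygen the subunit accumulates and raises transcription of most glycolytic enzymes, of glucose transporters, and of genes for blood vessel growth, pH control, mitophagy and collagen modification. Many tumors, melanoma among them, run glycolysis at a high rate even where oxygen is present.

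The members moved in both directions. In RGS tumors, 12 of the 43 rows (27.9%) were lower and 11 (25.6%) were higher than in vehicle tumors, and 20 did not pass the threshold, an adjusted p under 0.05 (quasi-likelihood F test of edgeR, Benjamini-Hochberg adjustment across the 15355 genes that were tested). Across all tested genes, 16.5% were lower and 16.3% were higher. Values in CPM (counts scaled to a library of fixed size after TMM) did not overlap between the groups for 27 of the 43 rows, against 45.8% of all genes. The median log2 fold change of the members was -0.05, the same to 2 decimals as the median over all tested genes, and the members ranged from -2.94 for *Aldoc* to 1.86 for *Epas1*.

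The counts by direction differed between the roles. Among the 18 rows for enzymes from hexokinase to lactate dehydrogenase, 7 were higher (38.9%) and 3 lower (16.7%). Their median log2 fold change was 0.22. With transporters, pyruvate dehydrogenase kinases and fructose-2,6-bisphosphate enzymes added, 9 of 28 rows were higher (32.1%) and 5 lower (17.9%), with a median of 0.20. Among the 15 HIF subunits, hydroxylases and targets outside glycolysis, 7 were lower (46.7%) and 2 higher (13.3%), with a median of -0.37. Over all tested genes 16.3% were higher and 16.5% lower, close to the shares of lower enzymes and of higher HIF-related members. These counts describe the lists, and no test of 1 list against another was run.

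**Figure D1:**
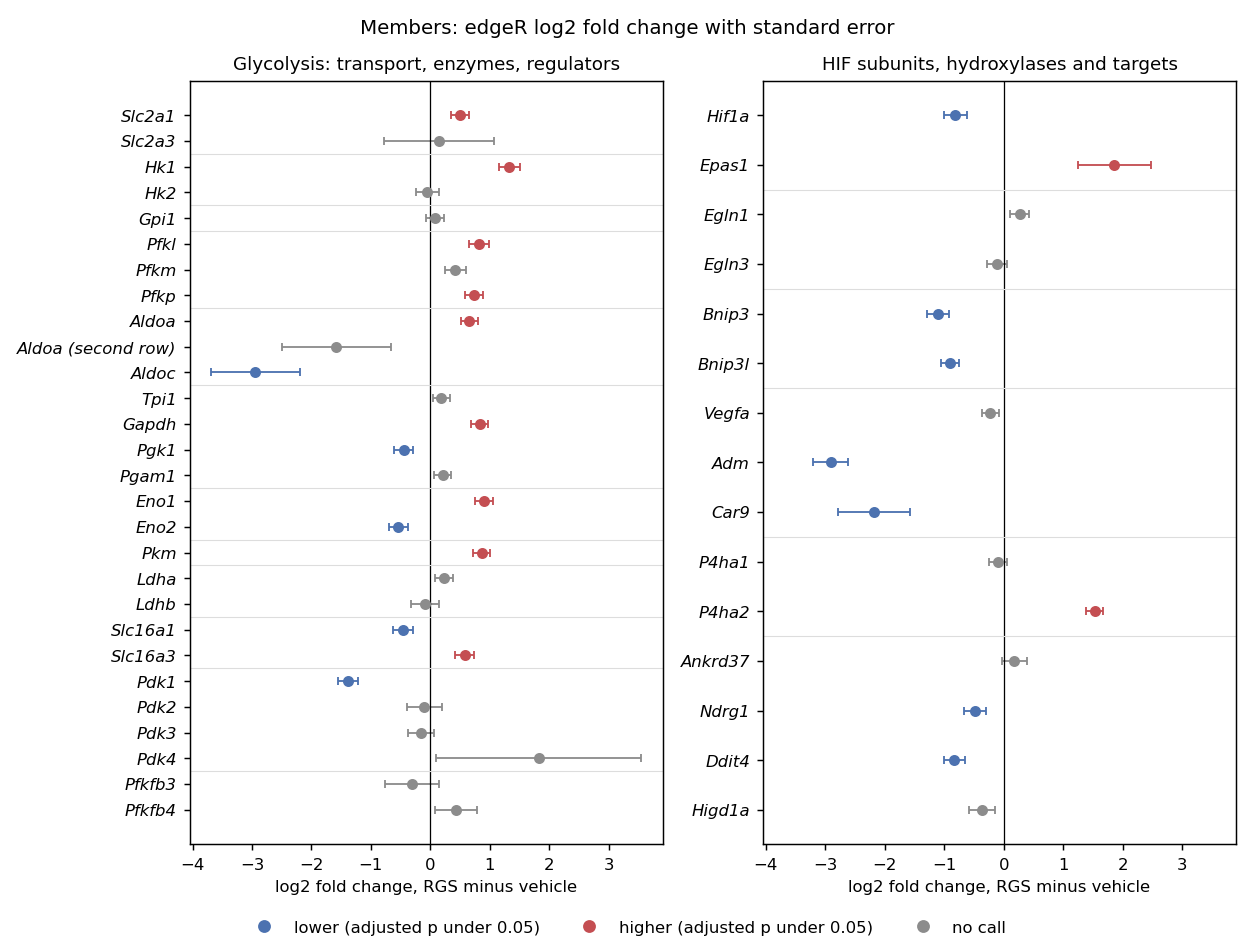
Log2 fold change (RGS minus vehicle, edgeR) of each of the 43 member rows with its standard error, ordered by role from glucose uptake downwards on the left and from HIF subunits to targets on the right, coloured by call. Most glycolytic enzymes with a call lie right of 0 (7 higher and 3 lower), and most HIF-related members with a call lie left of 0 (7 lower and 2 higher).

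The regions just before transcription starts of these genes are shown because HIF binds a short core, ACGTG or GCGTG, on either strand. RefSeq transcription starts (GRCm38.p6) were matched for 38 of the 42 members, which have 53 starts in all. *Ndrg1*, *Epas1*, *Bnip3l* and *Slc2a3* were not matched. The 250 bases before the start are printed 5′ to 3′ on the gene's strand for 3 members that were lower with RGS, *Adm* (chr7:110627407-110627656, plus strand), *Bnip3* (chr7:138909507-138909756, minus strand) and *Ddit4* (chr10:59951771-59952020, minus strand), and for 3 that were higher, *P4ha2* (chr11:54100674-54100923, plus strand), *Gapdh* (chr6:125165774-125166023, minus strand) and *Slc2a1* (chr4:119108495-119108744, plus strand). Capitals mark each match to the core, read on the printed strand as ACGTG or GCGTG and on the other strand as CACGT or CACGC. The palindrome CACGTG holds 2 overlapping matches. The stretches printed for *P4ha2* and *Gapdh* lie wholly within the span of the gene in the count table. Those of *Bnip3*, *Ddit4* and *Slc2a1* reach into that span.
Adm: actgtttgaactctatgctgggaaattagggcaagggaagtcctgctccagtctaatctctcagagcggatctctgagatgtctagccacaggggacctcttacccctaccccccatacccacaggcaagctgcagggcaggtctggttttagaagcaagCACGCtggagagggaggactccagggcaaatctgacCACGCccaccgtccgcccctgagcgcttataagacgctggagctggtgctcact
Bnip3: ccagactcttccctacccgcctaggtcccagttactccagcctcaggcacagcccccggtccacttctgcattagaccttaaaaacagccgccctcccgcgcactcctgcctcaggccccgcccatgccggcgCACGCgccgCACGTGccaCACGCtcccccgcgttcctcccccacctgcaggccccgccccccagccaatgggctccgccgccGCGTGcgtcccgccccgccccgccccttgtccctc
Ddit4: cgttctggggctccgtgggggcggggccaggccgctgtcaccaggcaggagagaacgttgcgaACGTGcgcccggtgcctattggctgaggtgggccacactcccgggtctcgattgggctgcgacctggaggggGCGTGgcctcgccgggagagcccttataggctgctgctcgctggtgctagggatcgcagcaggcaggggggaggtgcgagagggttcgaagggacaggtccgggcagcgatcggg
P4ha2: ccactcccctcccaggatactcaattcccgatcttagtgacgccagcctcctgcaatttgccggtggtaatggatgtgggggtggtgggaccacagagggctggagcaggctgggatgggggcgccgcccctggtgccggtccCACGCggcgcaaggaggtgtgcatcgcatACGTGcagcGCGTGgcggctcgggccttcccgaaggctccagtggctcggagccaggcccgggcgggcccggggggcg
Gapdh: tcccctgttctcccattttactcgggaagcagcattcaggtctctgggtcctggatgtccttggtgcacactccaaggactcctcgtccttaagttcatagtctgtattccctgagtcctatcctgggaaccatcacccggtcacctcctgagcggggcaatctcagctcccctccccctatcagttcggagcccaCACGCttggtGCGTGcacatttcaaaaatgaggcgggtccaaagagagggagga
Slc2a1: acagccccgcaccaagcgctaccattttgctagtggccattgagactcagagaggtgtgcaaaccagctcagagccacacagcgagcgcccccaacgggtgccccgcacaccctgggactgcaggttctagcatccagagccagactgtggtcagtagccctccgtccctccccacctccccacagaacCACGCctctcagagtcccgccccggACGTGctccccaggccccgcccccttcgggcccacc

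The core was present before starts of members that moved in opposite directions. At least 1 match lay in the 250 bases before the start for 81.1% of the 53 member promoters, against 54.2% of the promoters of all tested genes and 38.6% of all 32851 promoters in the table. The share was 83.3% for the 12 promoters of lower members, 81.2% for the 16 of higher members and 80.0% for the 25 of members without a call. The palindrome CACGTG, a match that overlaps the core, stood in 3 of the 12 promoters of lower members, *Bnip3* among them, in 0 of the 16 of higher members and in 4 of the 25 of members without a call, against 8.06% of promoters of all tested genes. A match is a run of letters and not a measured binding site. Members were chosen in part as HIF targets, so their share against all genes is only a description. Some starts of the same gene lie so close that they share matches, as for *Eno1* and *Aldoa*.

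The libraries held 13837932 to 32555494 counts, and the shallowest vehicle library was deeper than the deepest RGS library. The effects of depth and of treatment cannot be told apart from these libraries as sequenced. With counts thinned to the smallest library, 2497 genes were lower and 2476 higher of 14547 tested, against 2533 and 2503 of 15355 in the main fit. Among the members *Ndrg1* lost its call with thinning, and the other calls held. A count of 3, taken as the floor, corresponded to 0.0856 to 0.226 CPM (counting error only). Mitochondrial genome genes took 2.13 to 3.20% of counts in vehicle and 5.60 to 8.22% in RGS tumors, and ribosomal protein genes 5.66 to 10.2% and 3.15 to 3.68%. The tissue label was checked against marker genes. Of the 8 melanocyte markers, *Dct*, *Mlana* and *Tyr* had 0 counts in all 6 tumors, and the 8 together summed to 4.53 to 12.7 CPM, so that the defining genes of the melanocyte lineage were absent or scarce. Markers of blood and immune cells were absent or nearly so. The 4 hemoglobin genes, 5 of 7 T and NK cell markers and the macrophage markers *Adgre1* and *Aif1* were at 0 in all tumors. Of the 8 macrophage markers only *Cd68*, a lysosomal protein, was measured above 7 counts in any tumor, at 64.7, 64 and 58.8 CPM in vehicle and 65.4, 69.1 and 87.7 CPM in RGS tumors, which is nearly the whole sum of that list. The lists for neutrophils, T and NK cells, B cells, keratinocytes, adipocytes and erythroid cells each summed to at most 2.56 CPM in any tumor. Cell division genes summed to 498 to 552 CPM in vehicle and 203 to 243 CPM in RGS tumors. The labels describe tumors grown under the skin of mice, whereas such marker levels leave it unsettled whether the libraries hold the host cells of a whole tumor or only cells of the injected line. The files used here do not decide between these, so “tumor” below means a sample as labelled. The part that any of these values plays in the results below was not tested, apart from the alternatives in depth and scaling given at the end. In bulk samples, fewer cells of a type and less RNA per cell cannot be told apart. Values below are given in the order of replicates 7, 8 and 9 for vehicle and 10, 11 and 12 for RGS, means carry SDs over 3 tumors, and log2 fold changes carry the SE of the fit.

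Glycolytic enzymes were among the most abundant transcripts of these tumors, and their total was larger with RGS. *Pkm*, *Aldoa*, *Gapdh*, *Eno1*, *Pgk1*, *Ldha* and *Gpi1* were among the 100 genes with the highest mean CPM of the table. The 17 enzyme genes from hexokinase to lactate dehydrogenase, both *Aldoa* rows included, took 1.47, 1.44 and 1.39% of the scaled counts in the vehicle tumors and 1.96, 2.19 and 2.33% in the RGS tumors. Every RGS tumor thus lay above every vehicle tumor. The 13 HIF targets and hydroxylases outside glycolysis took 0.179, 0.200 and 0.205% in the vehicle tumors and 0.159, 0.153 and 0.150% in the RGS tumors, with every RGS tumor below every vehicle tumor. The separation of this HIF total rested on *Bnip3* and *Bnip3l*. *Bnip3* went from 441 ± 120 to 205 ± 27.6 CPM and *Bnip3l* from 325 ± 49.7 to 174 ± 9.54 CPM. With these 2 genes left out, the totals of the groups overlapped. The enzyme and HIF totals are descriptions, since 3 tumors against 3 cannot give an exact two-sided permutation p below 0.1.

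In RPKM (CPM per kilobase of merged exons), the order of the levels changed within the pathway. Merged exons pool all annotated exons of a gene, so an order between genes depends on the annotation. In vehicle tumors *Aldoa* stood highest at 750.1 ± 10.6 RPKM, followed by *Pgk1* at 684 ± 108, *Pkm* at 604 ± 60, *Gapdh* at 479 ± 21.5, *Ldha* at 358 ± 43.2 and *Eno1* at 318 ± 23.1. The tumors' values of *Aldoa* and *Pgk1* overlapped, and in vehicle tumor 9 *Pgk1* was the higher (758 against 739 RPKM). Those of *Pgk1* and *Pkm* overlapped too, as did those of *Ldha* and *Eno1*. In RGS tumors the order was *Aldoa* at 1184 ± 154, *Pkm* at 1099.6 ± 89.5, *Gapdh* at 851 ± 96.8, *Eno1* at 596 ± 57.5, *Pgk1* at 502 ± 52.1 and *Ldha* at 419 ± 22.7 RPKM. Here *Aldoa* and *Pkm* overlapped, as did *Pgk1* and *Eno1*. By the means *Pgk1* stood behind *Pkm*, *Gapdh* and *Eno1* in RGS tumors, although in vehicle tumor 7 it was already behind *Pkm* (560.1 against 671 RPKM). By mean CPM, without division by length, *Pgk1* stood behind *Pkm*, *Gapdh* and *Eno1* in both groups. It was at 1535 CPM in vehicle and 1127 CPM in RGS tumors, against 1712 and 3208 CPM for *Eno1*.

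Glucose uptake is represented by *Slc2a1*, which encodes the widespread glucose transporter GLUT1, and *Slc2a3*, which encodes the high-affinity GLUT3. *Slc2a1* (chr4:119108711-119137983, GRCm38) measured 319.7, 283 and 245 CPM in vehicle and 409, 408 and 388 CPM in RGS tumors, without overlap. The log2 fold change was 0.51 ± 0.15 (adjusted p = 0.0148), a 1.42-fold higher level. The call did not hold in 3 of the 6 fits that left out 1 tumor (without vehicle 8, vehicle 9 or RGS 11), where the adjusted p reached 0.0675, nor with library totals in place of TMM or with an offset for GC content (adjusted p up to 0.0868). *Slc2a3* was scarce, at 1.88, 1.85 and 0.774 CPM in vehicle and 3.03, 1.73 and 0.245 CPM in RGS tumors, and the groups overlapped (adjusted p = 0.917). *Slc2a1* made up 99.7 ± 0.0867% of the pair's counts per kilobase in vehicle and 99.8 ± 0.163% in RGS tumors. Such shares within a family count only the members and depend on the exon lengths used. They are given as descriptions, without a test.

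Hexokinases trap glucose in the cell by phosphorylating it, and the 2 isoforms differed. *Hk1* (chr10:62268855-62379908), the housekeeping form, measured 218, 156 and 134 CPM in vehicle and 436, 393 and 448 CPM in RGS tumors. It was the glycolytic enzyme gene with the largest increase, 2.51-fold (log2 fold change 1.33 ± 0.18, adjusted p = 1.36e-05), and it remained called without any 1 tumor. *Hk2* (chr6:82725025-82774454), the inducible form and a HIF target, measured 102, 60.8 and 63.3 CPM and 74.6, 77.6 and 65.8 CPM, with overlap and no call (log2 fold change -0.05 ± 0.20, adjusted p = 0.865). Vehicle tumor 7 was the highest of all 6 for *Hk2* and the highest vehicle tumor for *Hk1*. Per kilobase, the share of *Hk1* in the pair was 59.9, 64.2 and 59.6% in vehicle and 80.4, 78.0 and 82.6% in RGS tumors.

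The next steps split between a called increase and no call. *Gpi1*, glucose-6-phosphate isomerase, measured 1039, 929.6 and 875 CPM in vehicle and 914, 1040.3 and 1043 CPM in RGS tumors and did not pass the test (log2 fold change 0.08 ± 0.15, adjusted p = 0.736). Phosphofructokinase-1 catalyses the committed step and is built from liver (*Pfkl*), muscle (*Pfkm*) and platelet (*Pfkp*) subunits. *Pfkl* (chr10:77986947-78010083) measured 177, 137 and 128 CPM in vehicle and 257, 228 and 298 CPM in RGS tumors, 1.77-fold higher (log2 fold change 0.82 ± 0.17, adjusted p = 0.000877). *Pfkp* (chr13:6579768-6648777) measured 215, 191 and 175 CPM and 308, 320.3 and 336 CPM, 1.66-fold higher (log2 fold change 0.73 ± 0.15, adjusted p = 0.000891). Exons of *Pfkp* overlap 748 bases of *Pitrm1* on the opposite strand, whose counts came to 38.8% of those of *Pfkp* and whose reads cannot be separated from it if counting ignored strand. *Pfkm* measured 74.8, 67.1 and 58.9 CPM and 104, 88.6 and 76.6 CPM, also without overlap, but did not pass (log2 fold change 0.42 ± 0.17, adjusted p = 0.0687), although DESeq2 called it. All 3 subunits together summed to 56.5 ± 7.66 RPKM in vehicle and 89.9 ± 4.58 RPKM in RGS tumors, a ratio of 1.59, and the share of *Pfkm* in them went from 34.5, 36.6 and 35.4% in vehicle to 33.5, 31.4 and 24.8% in RGS tumors.

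Aldolase cleaves the 6-carbon sugar and was carried almost wholly by *Aldoa*, the muscle and general form. *Aldoa* (chr7:126795234-126800751) measured 2188, 2212 and 2150.4 CPM in vehicle and 2938, 3613 and 3785 CPM in RGS tumors, 1.58-fold higher (log2 fold change 0.66 ± 0.15, adjusted p = 0.00211). The second row of that symbol held 2 to 81 counts and had no call. *Aldoc* (chr11:78322968-78327781), the brain form and a known hypoxia target, measured 3.45, 6.24 and 3.14 CPM in vehicle and 0.284, 0.979 and 0.428 CPM in RGS tumors. It fell 7.69-fold (log2 fold change -2.94 ± 0.74, adjusted p = 0.00503), the largest decrease among the members, on 6 to 175 counts per tumor. Without vehicle tumor 8, its highest, the adjusted p of *Aldoc* was 0.0923, and without RGS tumor 11 its log2 fold change was -3.59. Its share of the family per kilobase was below 1% in every tumor, at 0.140, 0.250 and 0.129% in vehicle and 0.00861, 0.0241 and 0.0101% in RGS tumors.

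The 4 single-gene steps of lower glycolysis showed 1 increase, 1 decrease and 2 genes without a call. *Gapdh* (chr6:125161715-125166467), glyceraldehyde-3-phosphate dehydrogenase, is a common reference gene for expression measurements and measured 2083, 1935 and 1924 CPM in vehicle and 3063, 3672 and 3818 CPM in RGS tumors. The groups did not overlap, and the level was 1.78-fold higher (log2 fold change 0.83 ± 0.15, adjusted p = 0.000263). Its 112 near-identical pseudogenes together held 0.239% of its counts. *Pgk1* (chrX:106187100-106203699), phosphoglycerate kinase, the enzyme that follows it, measured 1257, 1647 and 1702 CPM and 1046, 1073 and 1261 CPM and was 1.36-fold lower (log2 fold change -0.45 ± 0.16, adjusted p = 0.0375). For *Pgk1* RGS tumor 12 lay just above vehicle tumor 7, so the groups overlapped, and the call did not hold without vehicle 8, vehicle 9, RGS 10 or RGS 11 (adjusted p up to 0.177). *Tpi1*, triose-phosphate isomerase, measured 746, 693 and 674 CPM and 718, 814 and 875 CPM (adjusted p = 0.357). *Pgam1*, phosphoglycerate mutase, measured 308, 338 and 318 CPM and 385, 341 and 389 CPM, higher in each RGS tumor but without a call (log2 fold change 0.21 ± 0.15, adjusted p = 0.286).

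Enolase and pyruvate kinase complete the pathway to pyruvate. *Eno1* (chr4:150236721-150248879), the general enolase, measured 1842, 1699 and 1594 CPM in vehicle and 2853, 3359.8 and 3413 CPM in RGS tumors, 1.87-fold higher (log2 fold change 0.91 ± 0.15, adjusted p = 0.000116). *Eno2* (chr6:124760053-124769673), the neuronal enolase, moved the other way, from 71.1, 75.8 and 68.2 CPM to 50.5, 49.5 and 48.2 CPM (log2 fold change -0.54 ± 0.16, adjusted p = 0.0166). The decrease of *Eno2* was not called without vehicle 8 or RGS 11, where the adjusted p reached 0.123. The share of *Eno2* in the pair per kilobase was 4.22, 4.85 and 4.66% in vehicle and 1.98, 1.66 and 1.59% in RGS tumors. The pair leaves out *Eno3*, which is not a member but was more abundant than *Eno2*. *Eno3* stood at 204 ± 37.9 RPKM in vehicle and 141 ± 26.1 RPKM in RGS tumors. For *Eno2* the values were 15.2 ± 0.82 and 10.5 ± 0.24 RPKM. *Pkm* (chr9:59656368-59679375), which encodes the M1 and M2 forms of pyruvate kinase, measured 3355, 2928 and 2776 CPM and 5086, 5437 and 5975 CPM, 1.82-fold higher (log2 fold change 0.86 ± 0.15, adjusted p = 0.000175). Counts per gene do not separate the M1 and M2 forms.

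**Figure D2:**
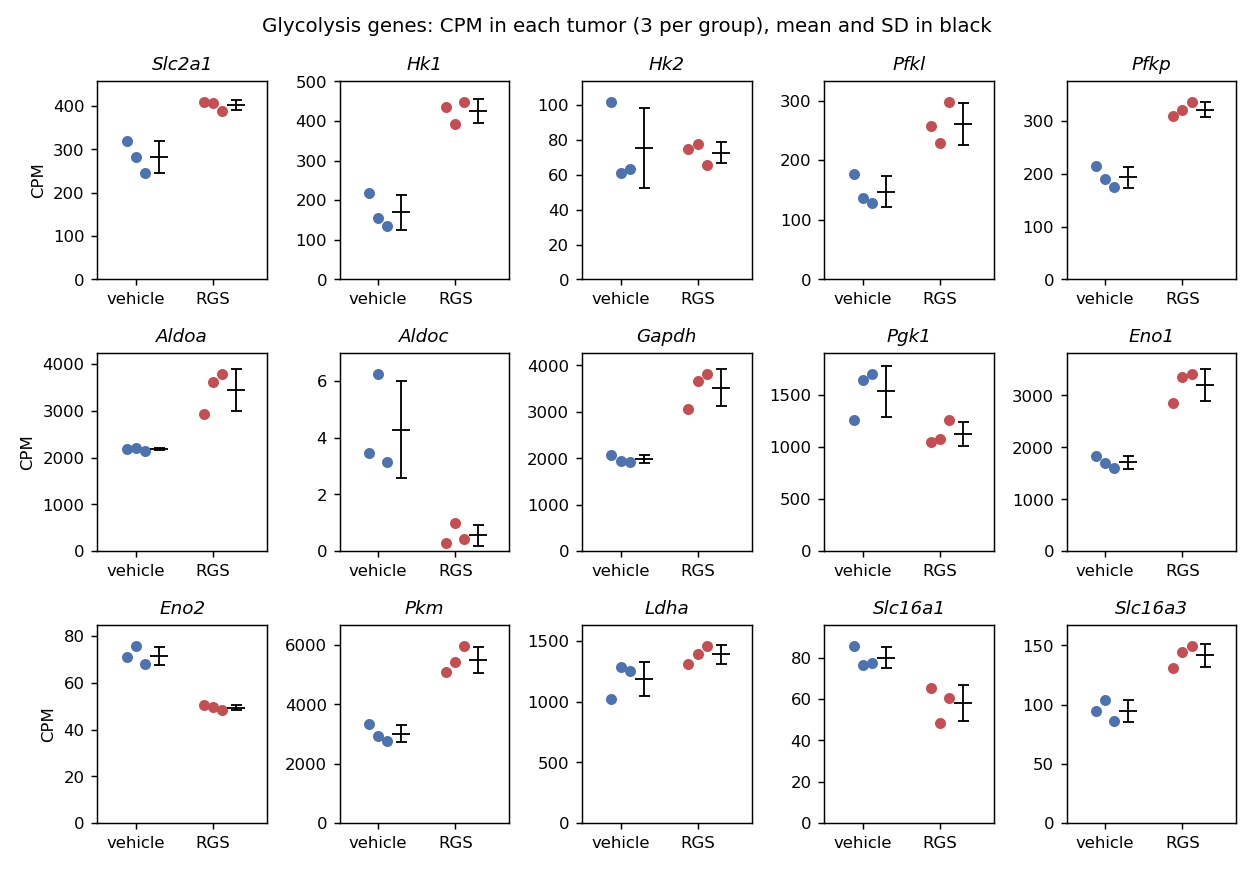
CPM of 15 glycolysis genes in each of the 3 vehicle (blue) and 3 RGS tumors (red), with the group mean and SD in black and each axis starting at 0. *Hk1*, *Pfkl*, *Pfkp*, *Aldoa*, *Gapdh*, *Eno1* and *Pkm* lie higher in every RGS tumor (*Pkm* at 5086 to 5975 CPM against 2776 to 3355 CPM), while *Aldoc*, *Eno2* and *Slc16a1* lie lower and *Pgk1* overlaps.

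Neither lactate dehydrogenase transcript passed the test, and the transcripts of the 2 lactate exporters moved in opposite directions. *Ldha* (chr7:46841475-46855627), the main lactate dehydrogenase subunit and a classic HIF target, measured 1021, 1285 and 1249 CPM in vehicle and 1308, 1395 and 1458 CPM in RGS tumors (log2 fold change 0.23 ± 0.15, adjusted p = 0.262). The groups of *Ldha* did not overlap, but vehicle tumor 7 lay well under the other vehicle tumors. *Ldhb* measured 19.9, 34.6 and 34.1 CPM and 25.1, 26.2 and 32.2 CPM (adjusted p = 0.818), and *Ldha* held 94.6 to 96.1% of the pair per kilobase in vehicle and 95.5 to 96.2% in RGS tumors. *Slc16a3* (chr11:120948480-120960868), which encodes the low-affinity exporter MCT4 of glycolytic cells, measured 94.5, 104 and 85.9 CPM and 131, 144 and 149.5 CPM, 1.49-fold higher (log2 fold change 0.58 ± 0.15, adjusted p = 0.00751, and 0.0945 with the GC offset). *Slc16a1* (chr3:104638668-104658462), which encodes MCT1, measured 85.7, 76.4 and 77.5 CPM and 65.4, 48.3 and 60.6 CPM, 1.37-fold lower (log2 fold change -0.46 ± 0.17, adjusted p = 0.047), and this call did not hold in 5 of 6 fits without 1 tumor (without RGS 10 it did), nor with RLE size factors, without the filter on low counts or with the GC offset, where the log2 fold change was -0.20 (adjusted p = 0.417). The share of *Slc16a3* in the pair was 47.9, 53.2 and 48.0% in vehicle and 62.5, 71.3 and 67.3% in RGS tumors.

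Pyruvate dehydrogenase kinases switch off the enzyme complex that feeds pyruvate into mitochondria, and fructose-2,6-bisphosphate enzymes set the level of the main activator of phosphofructokinase-1. *Pdk1* (chr2:71873224-71903858), the HIF-induced kinase, measured 108, 113 and 109.9 CPM in vehicle and 47.9, 38.3 and 40.1 CPM in RGS tumors, 2.62-fold lower (log2 fold change -1.39 ± 0.17, adjusted p = 4.09e-06). *Pdk2* at 11.2, 11.2 and 10.7 CPM against 9.47, 9.04 and 12.3 CPM (adjusted p = 0.819) and *Pdk3* at 23.2, 34.6 and 28.7 CPM against 29.1, 22.9 and 25.8 CPM (adjusted p = 0.633) overlapped between the groups. With 0 to 6 counts per tumor, *Pdk4* was close to the floor throughout, and no fold is given. In vehicle tumors *Pdk1* had the largest share of the family per kilobase, and in RGS tumors *Pdk3* had it. By CPM, without division by length, *Pdk1* had the largest mean share in both groups, 73.5% in vehicle and 53.6% in RGS tumors, against 19.1 and 33.0% for *Pdk3*. Per kilobase, *Pdk1* held 52.3, 46.0 and 49.2% in vehicle and 29.9, 29.4 and 26.8% in RGS tumors, and *Pdk3* held 34.1, 42.8 and 39.0% and then 55.2, 53.4 and 52.4%. *Pdk2* held 11.2 to 13.4% in vehicle and 14.6 to 20.2% in RGS tumors. *Pfkfb3* (4.97, 4.03 and 6.02 CPM against 4.12, 4.07 and 3.92 CPM, adjusted p = 0.64) and *Pfkfb4* (6.88, 6.24 and 7.61 CPM against 12.7, 7.53 and 7.59 CPM, adjusted p = 0.376) had no call, with overlapping values.

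**Figure D3:**
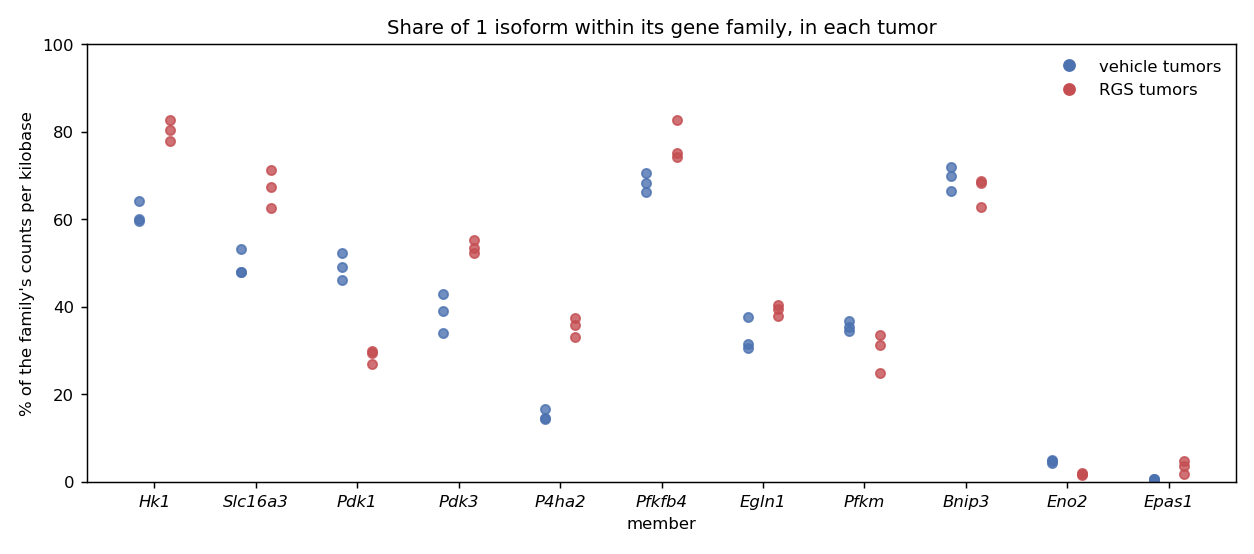
Share of 1 isoform in the summed counts per kilobase of its family's members in each tumor (vehicle blue, RGS red), for 11 members. *Eno3*, *Egln2* and *Pfkfb2* were measured but are not members and are not counted. The groups separate most for *Hk1* (59.6 to 64.2% against 78.0 to 82.6%), *Slc16a3*, *Pdk1*, *Pdk3* and *P4ha2*, and overlap for *Bnip3*.

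The 2 HIF alpha subunits moved in opposite directions from very different levels. *Hif1a* (chr12:73901375-73947530) encodes the broadly expressed subunit HIF-1α and measured 333, 278 and 266 CPM in vehicle and 226, 123 and 148 CPM in RGS tumors. It was 1.76-fold lower without overlap (log2 fold change -0.82 ± 0.19, adjusted p = 0.00318). With the GC offset the log2 fold change of *Hif1a* was -0.52 and the call was lost (adjusted p = 0.0584). *Epas1* (chr17:86753907-86833410) encodes HIF-2α, which is prominent in endothelial cells, and measured 1.97, 0.927 and 1.38 CPM and 7.76, 5.5 and 2.33 CPM. It was 3.64-fold higher on 26 to 164 counts (log2 fold change 1.86 ± 0.61, adjusted p = 0.0249), and the call did not hold without vehicle 8 or RGS 10, where the adjusted p reached 0.139. *Hif1a* held 99.3 to 99.6% of the pair per kilobase in vehicle and 95.3 to 98.3% in RGS tumors. The 8 endothelial markers summed to 72.6 to 106 CPM in vehicle and 96.8 to 111 CPM in RGS tumors, nearly all of it *Flt1* and *Eng*, with *Emcn* at 0 and *Pecam1*, *Kdr* and *Tie1* at 0 to 22 counts, 2 of the 5 tested higher (*Eng* and *Cdh5*) and the others without a call, and their part in the *Epas1* result was not tested.

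The HIF prolyl hydroxylase genes did not pass the test. *Egln1*, the main oxygen sensor, measured 79.2, 64.5 and 75.9 CPM in vehicle and 86.1, 89.8 and 89 CPM in RGS tumors, higher in each RGS tumor (log2 fold change 0.27 ± 0.16, adjusted p = 0.21). *Egln3*, itself a HIF target, measured 127, 109 and 93.1 CPM and 98, 98.4 and 109 CPM (log2 fold change -0.11 ± 0.16, adjusted p = 0.645). The share of *Egln1* in the pair per kilobase was 31.6, 30.5 and 37.7% in vehicle and 39.4, 40.3 and 37.8% in RGS tumors, separated by a narrow margin.

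Both mitophagy receptors fell. *Bnip3* (chr7:138890836-138909519) and *Bnip3l* (chr14:66985239-67008877) encode outer mitochondrial membrane proteins that mark mitochondria for autophagy in low oxygen. *Bnip3* measured 313, 457 and 553 CPM in vehicle and 229, 175 and 211 CPM in RGS tumors, 2.15-fold lower (log2 fold change -1.11 ± 0.19, adjusted p = 0.000183). *Bnip3l* measured 271, 334 and 369 CPM and 181, 177 and 163 CPM, 1.87-fold lower (log2 fold change -0.90 ± 0.16, adjusted p = 0.000214). In both genes vehicle tumor 7 was the lowest vehicle tumor and vehicle tumor 9 the highest, and every RGS tumor lay below all 3. Their ratio to each other stayed within the spread, with *Bnip3* at 66.4 to 71.9% of the pair per kilobase in vehicle and 62.8 to 68.8% in RGS tumors.

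The secreted and pH-controlling targets held 2 of the 3 largest decreases among the members. *Adm* (chr7:110627661-110629820) encodes adrenomedullin, a vasodilator peptide, and measured 48.9, 60.8 and 43.9 CPM in vehicle and 3.88, 6.33 and 10.3 CPM in RGS tumors. It was 7.51-fold lower (log2 fold change -2.91 ± 0.29, adjusted p = 5.43e-07), and the highest RGS tumor was far below the lowest vehicle tumor. *Car9* (chr4:43506966-43513729), carbonic anhydrase 9, is widely used as a marker of hypoxic tumor regions and measured 7.54, 6.7 and 6.75 CPM and 2.75, 0.301 and 1.47 CPM. *Car9* was 4.54-fold lower (log2 fold change -2.18 ± 0.60, adjusted p = 0.00888) on 4 to 264 counts, with a log2 fold change of -2.94 without RGS tumor 10. The antisense gene *Gm12454* overlaps 214 bases of *Car9* exons, and over all 6 tumors it held counts equal to 26.2% of those of *Car9*. Its counts were 13, 28 and 65 in vehicle and 37, 17 and 22 in RGS tumors. Those of *Car9* were 264, 188 and 157 in vehicle and 58, 4 and 24 in RGS tumors. Reads in the overlap cannot be separated if counting ignored strand. *Vegfa*, vascular endothelial growth factor A, measured 259, 269 and 279 CPM and 235, 238 and 216 CPM. All 3 RGS tumors lay below all 3 vehicle tumors for *Vegfa*, but the gene did not pass the test (log2 fold change -0.23 ± 0.14, adjusted p = 0.245).

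Collagen prolyl 4-hydroxylases modify collagen so that its triple helix is stable, and the 2 catalytic subunits behaved differently. *P4ha1* measured 332, 329 and 272 CPM in vehicle and 313, 298 and 268 CPM in RGS tumors, with overlap (log2 fold change -0.09 ± 0.15, adjusted p = 0.698). *P4ha2* (chr11:54100095-54131665) measured 86.5, 83.4 and 82 CPM and 235, 251 and 242 CPM. This 2.89-fold higher level (log2 fold change 1.53 ± 0.15, adjusted p = 3.56e-07) had the smallest adjusted p of all members. The share of *P4ha2* in the pair per kilobase was 14.6, 14.3 and 16.6% in vehicle and 33.1, 35.7 and 37.3% in RGS tumors. The 8 fibroblast markers, cells that make collagen, summed to 407 to 602 CPM in vehicle and 294 to 321 CPM in RGS tumors, with *Lum* at 0 in all tumors, 4 of 7 tested lower and 1 higher. The 1 that was higher was *Dcn*, at 0.571, 1.39 and 1.46 CPM against 9.89, 6.55 and 15.7 CPM (log2 fold change 3.24 ± 0.50, adjusted p = 6.23e-05), and *Col1a1* had no call. The part of these markers in the *P4ha2* result was not tested.

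Of the remaining 4 HIF targets, 2 were lower. *Ddit4* (chr10:59949669-59951834) encodes REDD1, a stress-induced inhibitor of mTORC1, and measured 92.2, 113 and 109 CPM in vehicle and 61.3, 50.1 and 65.4 CPM in RGS tumors, 1.77-fold lower without overlap (log2 fold change -0.83 ± 0.17, adjusted p = 0.000946). *Ndrg1*, a differentiation and stress gene induced by hypoxia, measured 119.9, 109.7 and 77.9 CPM and 78.4, 78.5 and 62.5 CPM. Vehicle tumor 9 lay within the RGS range for *Ndrg1*, and the call (log2 fold change -0.49 ± 0.18, adjusted p = 0.0476) did not hold in 5 of 6 fits without 1 tumor (without vehicle 9 it did), nor with limma voom, RLE size factors or counts thinned to the smallest library (adjusted p up to 0.0563). *Ankrd37*, an ankyrin repeat gene that shares exon sequence with *Ufsp2* and *Lrp2bp* on the other strand, measured 22.9, 31.8 and 40.5 CPM and 33.6, 37.6 and 36.8 CPM (adjusted p = 0.56). *Higd1a*, a mitochondrial protein of the respiratory chain, measured 25.1, 34.6 and 44.5 CPM and 28.3, 26.9 and 25.5 CPM (adjusted p = 0.217), and without vehicle tumor 7 its decrease was called (adjusted p = 0.0432).

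**Figure D4:**
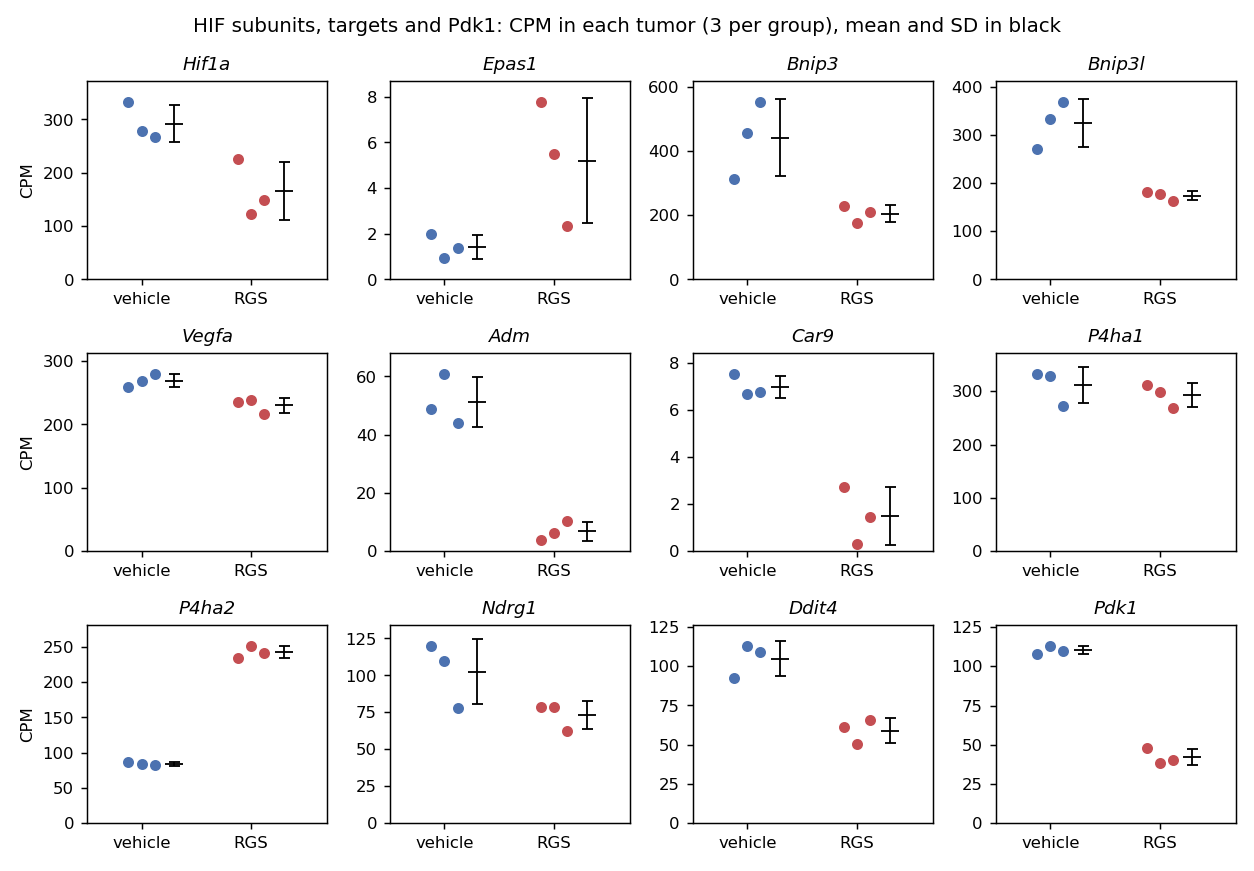
CPM of the HIF alpha subunits, 9 HIF targets and *Pdk1* in each of the 3 vehicle (blue) and 3 RGS tumors (red), with the group mean and SD in black and each axis starting at 0. *Adm* (3.88 to 10.3 against 43.9 to 60.8 CPM), *Bnip3*, *Bnip3l*, *Ddit4* and *Pdk1* lie lower in every RGS tumor, *P4ha2* and *Epas1* lie higher, and *P4ha1* and *Ndrg1* overlap.

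The vehicle tumors also differed among themselves. Of the 35 members with a mean of at least 10 CPM, vehicle tumor 7 was the lowest vehicle tumor for 12 and the highest for 19, vehicle tumor 9 was the lowest for 20 and the highest for 6, and vehicle tumor 8 was the lowest for 3 and the highest for 10. The 12 that were lowest in vehicle tumor 7 were *Pgk1*, *Pgam1*, *Ldha*, *Ldhb*, *Pdk1*, *Pdk3*, *Bnip3*, *Bnip3l*, *Vegfa*, *Ankrd37*, *Ddit4* and *Higd1a*, and the 19 that were highest there included *Hk1*, *Hk2*, *Slc2a1*, *Pkm* and *Hif1a* as well as the HIF targets *Egln3*, *P4ha1*, *P4ha2* and *Ndrg1*. Across these 35 members the coefficient of variation within a group had a median of 10.9% in vehicle (1.42 to 30.5%) and 8.41% in RGS tumors (2.19 to 47.6%). Ribosomal protein genes took 5.66% of counts in vehicle tumor 7, 8.39% in tumor 8 and 10.2% in tumor 9, and this difference was not tested against the members' values.

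Other genes of the same pathways, none of them members, were measured in the same fit to place these values. Of 19 tested genes of glycolysis and its branches, 2 (10.5%) were lower and 1 (5.26%) was higher, below the shares over all genes. *Adpgk*, an ADP-dependent glucokinase, had a log2 fold change of -0.89 ± 0.19 (adjusted p = 0.00118). *Eno3*, the muscle enolase, had -0.54 ± 0.18 (adjusted p = 0.025, and up to 0.146 without vehicle 8, vehicle 9 or RGS 10). The phosphoglucomutase gene listed as *Pgm1* (chr5:64092950-64128351) had 0.79 ± 0.16 (adjusted p = 0.000763). The gene listed as *Pgm2* at chr4:99929414-99987294 had 0 counts in every tumor. The muscle markers *Ckm*, *Myh1* and *Myh4* were at 0 in all tumors, and the muscle list summed to 9.82 to 13.5 CPM in vehicle and 5.80 to 9.42 CPM in RGS tumors. In the pentose phosphate pathway, which branches from glucose-6-phosphate to make NADPH and ribose, 4 of 9 genes were higher (44.4%) and 1 was lower (11.1%). Over all tested genes the shares were 16.3 and 16.5%. *G6pdx*, the entry enzyme, went from 120.2, 99.3 and 93.7 CPM to 276, 252 and 271 CPM (log2 fold change 1.35 ± 0.16, adjusted p = 2.8e-06). *Pgd*, which carries out the other oxidative NADPH step, went from 243, 219.6 and 193 CPM to 554, 559 and 625 CPM (log2 fold change 1.41 ± 0.15, adjusted p = 1.4e-06). Both lay higher in every RGS tumor, as did *Tkt*, transketolase, with a log2 fold change of 0.82 ± 0.16 (adjusted p = 0.000524), while *Rpe*, ribulose-phosphate epimerase, was lower at -1.17 ± 0.21 (adjusted p = 0.000259).

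Genes that carry pyruvate into mitochondria or serve lactate export included 5 of 11 tested that were lower (45.5%, against 16.5% of all tested genes). The median log2 fold change of the 11 was -0.47. The other 6 had no call, among them *Bsg*, the chaperone of the lactate transporters, at 701, 811 and 786 CPM in vehicle and 823, 798 and 975 CPM in RGS tumors (log2 fold change 0.18 ± 0.15, adjusted p = 0.395). *Mpc2*, a subunit of the mitochondrial pyruvate carrier, measured 25.6, 39.2 and 56.5 CPM in vehicle and 18.4, 21.1 and 9.12 CPM in RGS tumors (log2 fold change -1.32 ± 0.30, adjusted p = 0.0024). *Dld*, a component of the pyruvate dehydrogenase complex, measured 233, 276 and 290.1 CPM and 130.0, 117 and 106 CPM (log2 fold change -1.18 ± 0.16, adjusted p = 1.41e-05). *Pdp2*, a phosphatase that opposes the pyruvate dehydrogenase kinases, had a log2 fold change of -1.28 ± 0.32 (adjusted p = 0.0048, and 0.0573 without vehicle 8), so that it and *Pdk1* were both lower.

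The HIF pathway outside the members was mixed as well. Of 15 tested regulators, 5 were lower (33.3%) and 3 higher (20%), against 16.5 and 16.3% of all tested genes. *Vhl*, the ubiquitin ligase subunit that recognises hydroxylated HIF alpha, measured 21, 23.7 and 27.3 CPM in vehicle and 14.3, 9.87 and 16.8 CPM in RGS tumors (log2 fold change -0.81 ± 0.25, adjusted p = 0.0189, and up to 0.0768 without vehicle 8, vehicle 9 or RGS 11), and its scaffold *Cul2* had a log2 fold change of -1.04 ± 0.18 (adjusted p = 0.000185). *Ubxn7*, a cofactor that links this ligase to the p97 ATPase, was lower at -0.74 ± 0.17 (adjusted p = 0.00257). Higher were *Os9* at 0.96 ± 0.18 (adjusted p = 0.000361), *Limd1*, a scaffold for prolyl hydroxylase and VHL, at 0.95 ± 0.16 (adjusted p = 0.000122), and *Hif1an*, the asparaginyl hydroxylase that blocks HIF coactivator binding, at 0.75 ± 0.24 (adjusted p = 0.0208). The call of *Hif1an* did not hold without vehicle 8, vehicle 9, RGS 11 or RGS 12 (adjusted p up to 0.0811).

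Among 36 other tested hypoxia-induced genes, 9 were lower (25.0%) and 10 higher (27.8%), against 16.5 and 16.3% of all tested genes. The median log2 fold change of the 36 was -0.16. *Nampt*, the rate-limiting enzyme of NAD salvage, measured 239, 318 and 362 CPM in vehicle and 91.1, 75.8 and 91 CPM in RGS tumors (log2 fold change -1.83 ± 0.18, adjusted p = 2.86e-07). *Ero1l*, an oxidase of the endoplasmic reticulum, measured 999.9, 857 and 768 CPM and 309, 226 and 266 CPM (log2 fold change -1.71 ± 0.17, adjusted p = 3.41e-07). *Bhlhe40*, a transcriptional repressor, had a log2 fold change of -1.68 ± 0.20 (adjusted p = 3.2e-06). These 3 did not overlap between the groups and lay lower with RGS. In the other direction, *Angptl4*, a secreted inhibitor of lipoprotein lipase, measured 27, 33.7 and 31.2 CPM in vehicle and 242, 318 and 313 CPM in RGS tumors, 9.49-fold higher (log2 fold change 3.25 ± 0.18, adjusted p = 1.77e-10). *Ppfia4*, a liprin, was scarce at 0.0856, 0.178 and 0.43 CPM against 1.75, 2.79 and 4.47 CPM (log2 fold change 3.70 with an SE of 0.999, adjusted p = 0.00788, and 0.0554 without RGS 12). *Nos2*, inducible nitric oxide synthase, was called higher (adjusted p = 0.0147) on 0, 0 and 0.086 CPM in vehicle and 0, 5.2 and 1.22 CPM in RGS tumors, and since 1 RGS tumor was at 0, no fold is given. DESeq2, limma voom and the fit without RGS 11 did not call it (adjusted p up to 0.213).

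**Figure D5:**
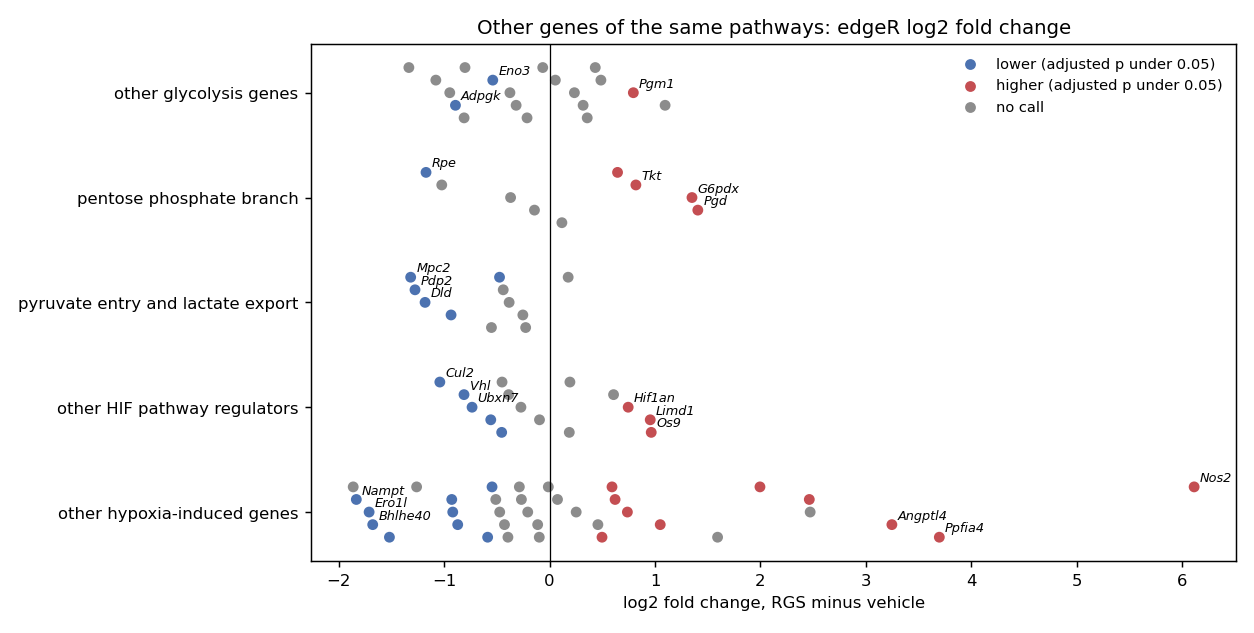
Log2 fold change (RGS minus vehicle, edgeR) of each tested non-member gene in 5 related lists, coloured by call, with the named genes labelled. Vertical position within a list only separates the points. Pyruvate entry holds calls left of 0 (5 of 11), the pentose phosphate branch holds 4 higher and 1 lower of 9, and the other hypoxia-induced genes spread to both sides (9 lower and 10 higher of 36).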

How the data were processed

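RNA was measured in 6 tumors, 3 per group. Per the labels and methods, RNA from tumors kept in RNAlater was sequenced as paired-end reads, and the table deposited by the authors holds reads counted for each gene, as raw counts. The submitters' processing notes name cutadapt 1.18, FastQC 0.11.7, STAR 2.7.1a, featureCounts 1.6.4 and mm10. The annotation release, the strand setting and the handling of reads that match several genes are not given in the sources used here. Of the 40166 gene identifiers, 38971 are in GENCODE M21, all with the same start, end and exon length.

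Genes with a median of at least 5 counts in at least 1 group were tested in R 4.3.3 with edgeR 4.0.16 (TMM factors, quasi-likelihood F test, Benjamini-Hochberg over 15355 genes). Each SE was obtained from the fold change on the log2 scale and its F statistic. DESeq2 1.42.0, the tool of the study, and limma 3.58.1 (voom) were alternatives, beside other scalings, filters, thinning to the smallest library and each tumor left out in turn. Exon overlaps were taken from GENCODE M21, near-identical copies from blastn 2.17.0, and promoters from RefSeq. The procedure was tested on simulated data. Members and lists were chosen with earlier results of these data known. Every member is named, and of each related list up to 3 called genes per direction with the largest change and a mean of at least 1 CPM. Labels name the tumors separately, so p-values measure the spread between these tumors, which the labels tie to no particular mice.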

Additional observations from a re-analysis of the deposited data

How the results depend on the processing

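No called member changed direction under any alternative that was run. The counts of 12 lower and 11 higher members lay between 10 and 12 and between 8 and 12 under other tests, scalings, filters and offsets. A further requirement, a log2 fold change of 1 or more in size, left 5 lower and 3 higher members. At an adjusted p under 0.01 the counts were 8 and 9. Leaving out 1 tumor at a time gave 7 to 11 lower members, 7 of them without vehicle replicate 8, and 9 to 12 higher members. Library totals in place of TMM moved the median log2 fold change of all genes from -0.05 to -0.19 and the calls over all genes from 2533 lower and 2503 higher to 3152 and 1870, while 12 members stayed lower and 10 higher. Over the member log2 fold changes, 543 comparisons with an alternative kept their side of the threshold, 10 lost the call and 2 gained it. Without 1 tumor, 232 kept their side, 22 lost the call and 2 gained it. In both, 0 values with a call in either fit reversed. Values without a call could change sign. *Gpi1* went from 0.08 to as low as -0.07 under an alternative, and *Hk2* from -0.05 to as high as 0.23 without 1 tumor. Offsets for gene length and GC content and library totals without mitochondrial genes were chosen after seeing the data. With the GC offset the calls of *Slc2a1*, *Slc16a1*, *Slc16a3* and *Hif1a* were lost, and *Epas1* and *Pgam1* had no GC value and could not be fitted, which left 10 lower and 8 higher. The cause was not tested. Among the other pathway genes, 22 were lower and 18 higher, and without 1 tumor 14 to 28 (14 without vehicle replicate 8) and 15 to 19. Under the other alternatives, chosen for these genes after seeing the data, the counts were 21 to 30 and 16 to 20, and the GC offset lost the call of *Ubxn7*. No paired analysis was possible because the groups share no replicate number. At 0 to 6 counts, depth limits what can be said of *Pdk4*.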
